A study of Mus musculus with 6 samples.

Results

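The adrenergic receptors are the cell surface receptors through which noradrenaline and adrenaline act. The 8 genes described here were taken by their symbols from the count tables of 6 mouse forebrain libraries out of 23282 entries per table. Their levels were measured in 3 libraries of mice on a normal chow diet (NCD) and in 3 libraries of mice on a high-fat diet (HFD, 60 kcal% fat), each fed for 10 days. All mice were wild-type C57BL/6J males of 8 to 10 weeks, and the tissue was the forebrain hemisphere without the olfactory bulbs and the cerebellum. The labels do not say that each library came from a separate mouse, so the p-values measure the spread between these libraries.

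Noradrenaline reaches the forebrain mainly along axons of the locus coeruleus, a small brainstem nucleus, so the cell bodies that supply it lie mostly outside the forebrain. The receptors fall into 3 families by the G protein they use. Receptors of the alpha-1 family (Adra1a, Adra1b and Adra1d) couple to Gq and raise intracellular calcium through phospholipase C. The alpha-2 family (Adra2a, Adra2b and Adra2c) couples to Gi, lowers cyclic AMP and includes the autoreceptors that restrain noradrenaline release. The beta receptors (Adrb1 and Adrb3) couple to Gs and raise cyclic AMP through adenylyl cyclase. In the brain, these receptors are known for their roles in arousal, attention, stress responses and memory.

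The libraries were made with a 3′ method primed on the poly(A) tail, so each transcript was counted near its 3′ end and the annotated end of a gene decides which reads it receives. The annotated ends of the receptor genes are therefore shown here. In GENCODE vM21 on GRCm38 (the mm10 assembly), the most distal coding transcript of 7 of the 8 genes held a poly(A) signal in its last 50 bases, searched on the transcript strand as AATAAA or ATTAAA. Of 21866 protein-coding genes treated in the same way, 59.6% held AATAAA in this window and 13% held ATTAAA without AATAAA. A signal starts between 20 and 26 bases before the end in the 7 genes, and the 30 bases around it are given 5′ to 3′ on the transcript strand, with the signal in capitals.
Adrb1 (chr19:56725115-56725144, + strand): tggtccatgtgcAATAAAgacagcagtgca
Adrb3 (chr8:27225778-27225807, - strand): taaaatcaaattAATAAAtattattgaatg
Adra1a (chr14:66771134-66771163, + strand): tctttgaccgttAATAAAttggactgtcac
Adra1b (chr11:43774609-43774638, - strand): tgacaaagtgttATTAAAgttacacttcct
Adra2a (chr19:54048950-54048979, + strand): gatcaaatgtgaAATAAAcatgaattaagt
Adra2b (chr2:127367184-127367213, + strand): agctattttatcAATAAAggctatttttta
Adra2c (chr5:35281732-35281761, + strand): catttttttttaAATAAAcctttgtaatct

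Adra1b was the only member with the ATTAAA form. Adra1d held neither form in its last 50 bases, and its annotated 3′ untranslated region was 95 bases long, against 501 to 2295 bases in the other members. Adra1d also had the lowest counts of the members, and the part of its short annotated end in this level was not tested. The annotation that the study used for counting is not named in the sources used here, so its gene ends may differ from those given.

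The coding sequence lay in 1 exon in Adra2a, Adra2b, Adra2c and Adrb1, and in 2 exons in the 3 alpha-1 genes and Adrb3. Adra2a (chr19:54044151-54048982) and Adrb1 (chr19:56722199-56733113) lie 2.67 Mb apart. Adra2b (chr2:127363208-127367221) and Adra1d (chr2:131545850-131562283) are separated by 4.18 Mb. The other members are on different chromosomes, namely Adra1a (chr14:66635251-66771168), Adra1b (chr11:43774606-43901210), Adra2c (chr5:35278319-35281763) and Adrb3 (chr8:27225776-27250616). On the opposite strand, an exon of Gm14285 overlaps Adra1d and an exon of Gm45470 overlaps Adrb3. It is not stated whether the counting used strand, so the counts of these 2 genes may include reads of their partners. The other 6 genes share no exon sequence with another annotated gene.

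The total count ranged from 6842785 to 9689372 per library. Replicate libraries were further apart than sampling noise (chi-square per degree of freedom of 3.56 to 16.7) and each was kept as its own sample. All 7 markers of the telencephalon passed the filter on low counts, and their summed level was 2155 to 2505 CPM in the NCD group and 2342 to 2466 CPM in the HFD group. CPM is a gene's count relative to its library's TMM-scaled total, and a count of 3, taken as the floor of detection, corresponds to 0.316 to 0.432 CPM. One library stood apart: HFD replicate 3 had 1264 CPM of anterior pituitary hormone transcripts, against 2.08 to 8.95 CPM in the other 5. The summed markers of the dopaminergic midbrain were lowest in the same library, at 8.66 CPM against 24.3 to 34.9 CPM in the others. Over all 13 marker lists of cell types and neighboring tissues, the summed levels of the diets overlapped in 13. The sum of the 5 liver markers was mostly Ttr, with 7364 to 11936 counts per library, and hides the others. In unscaled counts, Fgb had 29, 35 and 14 in the NCD group and 2, 11 and 3 in the HFD group. Ahsg had 26, 62 and 15 against 8, 11 and 0, and Apoa1 had 27, 76 and 24 against 16, 16 and 21. Alb, with 37 to 249 against 13 to 50, overlapped. Of all genes tested, 4.49% were lower in the HFD group without overlap in CPM.

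The 8 receptor transcripts fell into 2 tiers of level. Adrb1, Adra1b, Adra2c and Adra2a lay between 17.7 and 53.8 CPM, while Adrb3, Adra1a, Adra2b and Adra1d lay between 0.874 and 3.9 CPM. Each family thus had at least 1 member in each tier. A 3′ library gives about 1 count per transcript regardless of its length, so these CPM were not divided by length, and the order rests on 3′ tags.

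Within the upper tier, Adrb1 averaged 49.5 ± 3.3 CPM (SD, n = 6) over all libraries, followed by Adra1b with 40.8 ± 4.58 CPM (SD, n = 6). Their ranges overlapped, although Adrb1 was the higher in 5 of 6 libraries. Adra2c, at 28.2 ± 3.46 CPM (SD, n = 6), lay under Adra1b in 6 of 6 libraries with no overlap of the ranges. Adra2a averaged 22.2 ± 2.9 CPM (SD, n = 6) and overlapped Adra2c, with a lower level in 5 of 6 libraries and the same count of 181 in HFD replicate 1. The step from Adra2a to the next gene, Adrb3, was 9.37-fold.

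Within the lower tier no pair of neighbors was separate. The mean level over all libraries was 2.37 ± 0.85 CPM (SD, n = 6) for Adrb3, 2.21 ± 0.865 CPM (SD, n = 6) for Adra1a, 1.69 ± 0.635 CPM (SD, n = 6) for Adra2b and 1.21 ± 0.0602 CPM (SD, n = 6) for Adra1d. The order of neighbors is thus not resolved beyond their spread, whereas Adrb3 lay above Adra1d in 6 of 6 libraries with no overlap of the ranges (1.51 to 3.9 CPM and 1.15 to 1.31 CPM). Among all genes tested, the level of Adrb1 was at the 70.6th percentile and that of Adra2a at the 50.5th. Adrb3 was at the 8.8th percentile and Adra1d at the 1.26th, close to the filter on low counts.

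**Figure D1:**
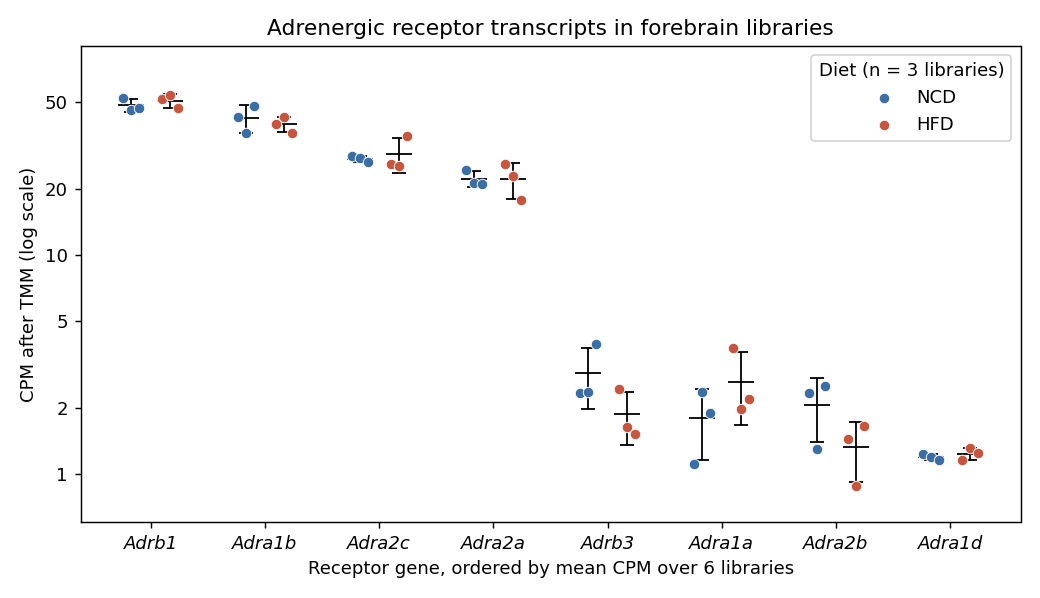
Level of each receptor transcript in CPM after TMM scaling, on a log axis, in the 3 NCD libraries (blue) and the 3 HFD libraries (red), with the mean and SD of each diet in black. Genes are ordered by mean level: 4 genes lie between 17.7 and 53.8 CPM and 4 between 0.874 and 3.9 CPM, and the diets overlap in each gene.

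To ask whether 10 days of the HFD went along with a change in these receptors, NCD and HFD libraries were set against each other in edgeR's quasi-likelihood model, fitted across all 13771 genes that passed a filter on low counts. All 8 receptor genes passed the filter. Of the 8, 0 had an adjusted p under 0.05 (edgeR with Benjamini-Hochberg adjustment) and 0 had an unadjusted p under 0.05, where 0% and 3.68% of all genes tested had one (1.71% higher and 1.98% lower in the HFD group). DESeq2 and limma after quantile normalization also gave 0 of 8 at an unadjusted p under 0.05. In 8 of 8 genes the HFD and NCD libraries overlapped, while 8.81% of all genes tested did not overlap (4.31% higher and 4.49% lower in the HFD group). Without the filter the corresponding shares of all genes were 4.76% at an unadjusted p under 0.05 and 8.14% without overlap, and 0 of the 8 receptors were among either. The median log2 fold change of the receptors was 0.03, against -0.0025 over all genes tested, with 5 genes above and 3 below 0. In whole tissue, fewer cells of a type and less RNA per cell cannot be told apart, and opposite changes in different regions could cancel.

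Of the beta receptors, Adrb1 is the main one of the heart and is also abundant in the cerebral cortex. It was counted 421, 426 and 446 times in NCD replicates 1 to 3, and 357, 492 and 340 times in HFD replicates 1 to 3. After scaling this was 52, 46 and 47 CPM in the NCD group and 51.4, 53.8 and 46.7 CPM in the HFD group. The 6 values interleaved, with the highest in HFD replicate 2 and the lowest in NCD replicate 2. For Adrb1, the log2 fold change was 0.07 ± 0.12 (SE; edgeR quasi-likelihood adjusted p = 0.979). Its 95% interval ran from 0.883-fold to 1.25-fold. Adrb1 varied by 6.66% (coefficient of variation over 6 libraries), where counting alone would give 4.92%, and its highest value was 1.17 times its lowest.

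Adrb3 is best known from brown and white fat, where it drives lipolysis and heat production. It had counts of 19, 22 and 37 in the NCD group and 17, 15 and 11 in the HFD group, or 2.35, 2.37 and 3.9 CPM and 2.45, 1.64 and 1.51 CPM. HFD replicates 2 and 3 were under each NCD library, but HFD replicate 1 was above 2 of the NCD libraries. The mean was 2.87 ± 0.889 CPM (SD, n = 3) in the NCD group and 1.87 ± 0.507 CPM (SD, n = 3) in the HFD group. The log2 fold change of Adrb3 was -0.63 ± 0.40 (SE), with an edgeR adjusted p = 0.979 and an unadjusted p = 0.13. Its 95% interval ran from 0.359-fold to 1.16-fold and included no change. Without NCD replicate 3, which had the highest value, the log2 fold change was -0.35. The 6 listed markers of adipose tissue summed to 4.42 to 5.72 CPM in the NCD group and 5.04 to 8.25 CPM in the HFD group, of which Cidea held most, with 32 to 56 counts per library. Adipoq had 0 to 4 counts, Plin1 0 to 1 and Cidec 0 to 4. The summed adipose markers were lowest, at 4.42 CPM, in NCD replicate 3, the library with the highest Adrb3. They were highest, at 8.25 CPM, in HFD replicate 3, the library with the lowest Adrb3. Cidea set this order, with 32 counts in NCD replicate 3 and 56 in HFD replicate 3. The other adipose markers, with few counts, were divided: Adipoq had its 4 counts in HFD replicate 3. Ucp1 went the other way, with 7 counts in NCD replicate 3 and 0 to 1 in the other libraries. Lep had 2 to 3 counts in the NCD libraries and 0 in the HFD libraries, all at or under the floor of 3 counts. Without the filter, 8.14% of all genes did not overlap between the diets. The part of adipose transcripts in the level of Adrb3 was not tested.

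Among the alpha-1 receptors, which in the cortex and thalamus are mainly postsynaptic, Adra1b was the abundant one. Its counts were 346, 333 and 455 in the NCD group and 275, 391 and 263 in the HFD group. The scaled levels were 42.7, 35.9 and 47.9 CPM in the NCD group and 39.6, 42.7 and 36.2 CPM in the HFD group. The HFD values lay inside the NCD range, whose ends were NCD replicates 2 and 3. Between the diets, Adra1b had a log2 fold change of -0.09 ± 0.13 (SE; edgeR quasi-likelihood adjusted p = 0.979), with a 95% interval from 0.769-fold to 1.14-fold. Without NCD replicate 3 it was 0.01.

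Adra1a, the alpha-1 receptor also found in smooth muscle and liver, had counts of 9, 22 and 18 in the NCD group and 26, 18 and 16 in the HFD group. This was 1.11, 2.37 and 1.9 CPM against 3.74, 1.97 and 2.2 CPM. The highest level came from HFD replicate 1 and the lowest from NCD replicate 1, and the other 4 libraries interleaved. The log2 fold change of Adra1a was 0.52 ± 0.43 (SE), with an edgeR adjusted p = 0.979 and an unadjusted p = 0.236, with a 95% interval from 0.77-fold to 2.69-fold. Leaving out HFD replicate 1 brought it to 0.20, and leaving out NCD replicate 2 to 0.77.

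Adra1d, an alpha-1 receptor known from blood vessels as well as from brain, had 10, 11 and 11 counts in the NCD group and 8, 12 and 9 in the HFD group. Its scaled levels of 1.15 to 1.31 CPM were within 1.14-fold of each other. The coefficient of variation was 4.96%, under the 31.4% that counting error alone gives at this mean count, so the closeness of the values says little about its precision. Adra1d had a log2 fold change of 0.05 ± 0.47 (SE; edgeR quasi-likelihood adjusted p = 0.997). The 95% interval ran from 0.524-fold to 2.05-fold, so a change by the factor of 1.5 used in the study was not excluded for this gene in either direction.

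The alpha-2 receptors include Adra2a, the main autoreceptor of noradrenergic neurons and a postsynaptic receptor of the prefrontal cortex, and Adra2c, which is abundant in the striatum. Adra2a had counts of 197, 197 and 199 in the NCD group and 181, 209 and 129 in the HFD group, or 24.3, 21.2 and 21 CPM and 26.1, 22.8 and 17.7 CPM. The HFD libraries held both the highest and the lowest level. In Adra2a the log2 fold change was 0.0036 ± 0.16 (SE; edgeR quasi-likelihood adjusted p = 0.999), with a 95% interval from 0.795-fold to 1.26-fold.

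Adra2c had counts of 229, 256 and 252 in the NCD group and 181, 234 and 254 in the HFD group. The levels were 28.3, 27.6 and 26.5 CPM in the NCD group and 26.1, 25.6 and 34.9 CPM in the HFD group. HFD replicate 3 was above, and the other HFD libraries were under, each NCD library. The log2 fold change of Adra2c was 0.07 ± 0.15 (SE; edgeR quasi-likelihood adjusted p = 0.979), with a 95% interval from 0.847-fold to 1.3-fold.

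In HFD replicate 3, the library with the pituitary transcripts and the lowest midbrain markers, Adra2c was thus at its highest and Adra2a at its lowest. The ratio of Adra2a to Adra2c counts was 0.508 in this library and 0.77 to 1 in the other 5. Without HFD replicate 3 the log2 fold change was 0.14 for Adra2a and -0.09 for Adra2c. The part of the pituitary and midbrain transcripts in these values was not tested.

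Adra2b, an alpha-2 receptor whose brain expression is known mainly from the thalamus, had counts of 19, 12 and 24 in the NCD group and 10, 8 and 12 in the HFD group. It averaged 2.06 ± 0.666 CPM (SD, n = 3) in the NCD group and 1.32 ± 0.401 CPM (SD, n = 3) in the HFD group. NCD replicate 2, at 1.29 CPM, lay within the HFD range of 0.874 to 1.65 CPM, while the other NCD libraries were above it. The log2 fold change of Adra2b was -0.65 ± 0.46 (SE), with an edgeR adjusted p = 0.979 and an unadjusted p = 0.179, with a 95% interval from 0.322-fold to 1.26-fold. The summed level of 5 thalamic marker genes, 530.6 to 655.5 CPM in the NCD group and 519 to 609.6 CPM in the HFD group, overlapped between the diets.

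**Figure D2:**
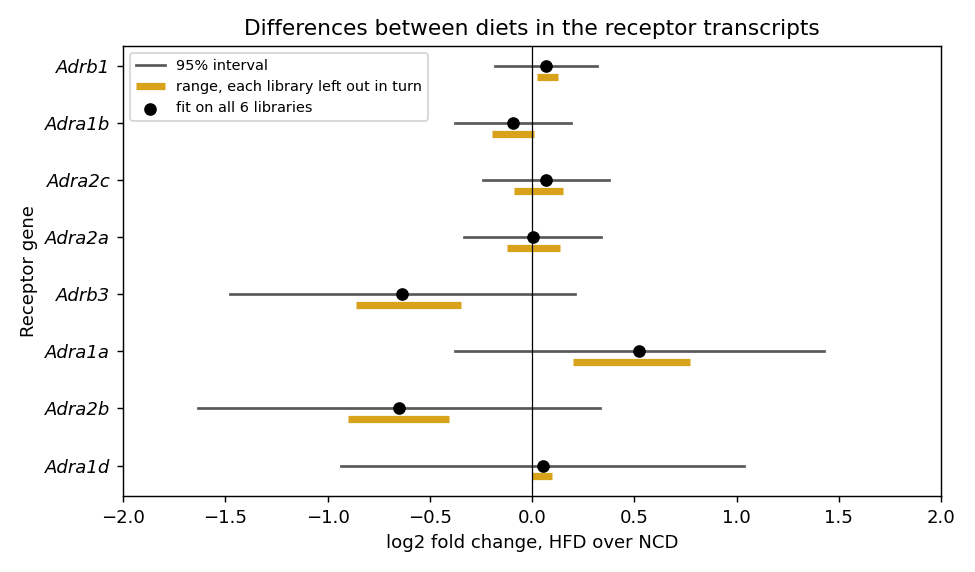
Log2 fold change of each receptor transcript, HFD over NCD, from the edgeR fit (black point) with its 95% interval (gray line) and, under it, the range over 6 fits that each leave out 1 library (yellow bar). The intervals of the 4 abundant genes are narrow and lie around 0, those of the 4 rare genes are wide, and each of the 8 includes 0.

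The difference in precision followed the counts. The standard error was 0.12 to 0.16 on the log2 scale for the 4 abundant genes and 0.40 to 0.47 for the 4 rare ones. Adrb3 and Adra2b passed a change of 1.5-fold, as did 3.73% of all genes tested, and both lay among the rare genes, with mean counts of 20.2 and 14.2 per library.

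The families' shares of the receptor pool overlapped between the diets. The 8 genes summed to 1034 to 1442 counts per library, or 148.1 ± 8.82 CPM (SD, n = 3) in the NCD group and 148.2 ± 5.3 CPM (SD, n = 3) in the HFD group. Of these counts, the Gq-coupled alpha-1 family took 30.5 ± 2.7% (SD, n = 3) in the NCD group and 29.2 ± 1.34% (SD, n = 3) in the HFD group. The Gi-coupled alpha-2 family took 35 ± 1.79% (SD, n = 3) in the NCD group and 35.4 ± 2.75% (SD, n = 3) in the HFD group. For the Gs-coupled beta genes the share was 34.6 ± 0.938% (SD, n = 3) and 35.4 ± 1.41% (SD, n = 3). The means of the diets differed, in each family, by less than the larger of the SDs. These shares are of the 8 genes listed and of 3′ tags, not of receptor protein.

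Single genes differed in how far their share varied. Adrb1 took 30.9% to 35.7% of the receptor counts over the 6 libraries, and Adra1b took 25.4% to 31.6%. The widest range among the abundant genes was that of Adra2c, from 17% to 24.6%, with the highest value in HFD replicate 3. The 4 rare genes each stayed at or under 2.57%. The ratio of Adra1b to Adrb1 counts was 0.77 to 0.795 in the HFD libraries and 0.782 to 1.02 in the NCD libraries.

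**Figure D3:**
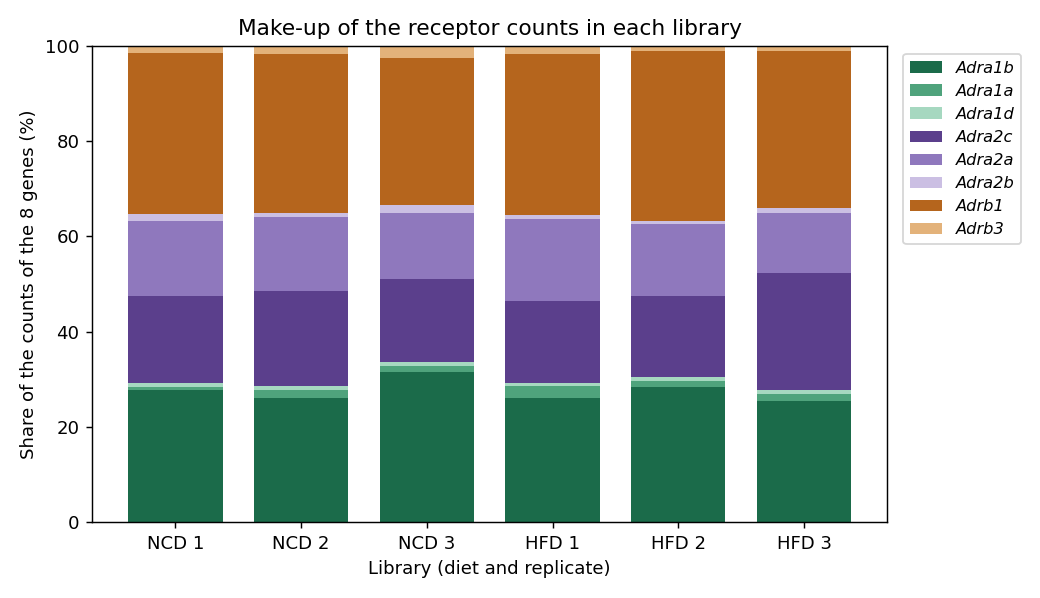
Share of each gene in the summed counts of the 8 receptor genes, in percent, for each of the 6 libraries. Green segments are alpha-1, purple alpha-2 and brown beta genes, and each family took between 27.9% and 38.2% in every library.

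Of the genes that make, carry or clear the ligand, 7 of 10 passed the filter, with 0 higher and 1 lower in the HFD group at an unadjusted p under 0.05, where 1.71% and 1.98% of all genes tested were. The latter was Th, which encodes tyrosine hydroxylase, the rate-limiting enzyme of catecholamine synthesis. Th had 16 ± 4.07 CPM (SD, n = 3) in the NCD group and 8.73 ± 5.21 CPM (SD, n = 3) in the HFD group, a log2 fold change of -0.85 (edgeR adjusted p = 0.979, unadjusted p = 0.016). Its counts were 100, 189 and 145 against 60, 128 and 26, with the lowest in HFD replicate 3. Th is itself 1 of the 5 midbrain markers, and the sum of the other 4 was 5.09 CPM in HFD replicate 3 against 11.9 to 17.3 CPM in the other libraries. The part of midbrain tissue in the level of Th was not tested. The log2 fold change of Th moved to -0.48 (edgeR unadjusted p = 0.0567) when HFD replicate 3 was left out, to -0.64 (edgeR unadjusted p = 0.0842) when NCD replicate 2 was, and to -1.40 (edgeR unadjusted p = 0.000495, adjusted p = 0.627) when HFD replicate 2 was. On all 6 libraries, the unadjusted p of Th was 0.122 with DESeq2, 0.00996 with limma, 0.00515 with the replicate block in edgeR and 8.42e-05 without the filter in edgeR, where the adjusted p was 0.0665.

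The brainstem nucleus that holds noradrenergic neurons is not part of the forebrain, and of the genes that define these neurons, Dbh and Slc6a2 were at or under the floor of 3 counts. Dbh, which makes noradrenaline from dopamine, had 0 to 2 counts per library and Slc6a2, the noradrenaline transporter, had 0 to 3. Phox2a, another gene of the list, had 111 to 213 counts, and an exon of Inppl1 on the opposite strand overlaps it.

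Downstream of the receptors, 40 further listed genes were tested and 0 had an unadjusted p under 0.05, against 3.68% of all genes tested. The median log2 fold change was -0.07 for 9 G protein alpha subunits, -0.08 for 7 receptor kinases and arrestins, which switch off activated receptors, and -0.13 for 9 adenylyl cyclases. It was -0.05 for 6 subunits of protein kinase A, the effector of cyclic AMP, 0.06 for 3 phospholipase C beta genes and -0.02 for 6 RGS genes, whose products speed the shut-off of G proteins. Plcb2, the remaining phospholipase C beta gene, did not pass the filter and is named after its values were seen, with 11, 10 and 16 NCD counts against 3, 5 and 4 HFD counts. Fitted without the filter, Plcb2 had a log2 fold change of -1.40 (edgeR adjusted p = 0.941, unadjusted p = 0.0551). Its groups did not overlap, where 8.14% of all genes did not overlap without the filter. The most abundant gene of each of these lists lay close to 0 in its log2 fold change. This was 0.0046 for Gnas, which encodes the Gs alpha subunit, -0.05 for Arrb1, 0.0044 for Adcy1, -0.05 for Prkar1a, -0.06 for Plcb1 and -0.03 for Rgs4.

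Over these lists with the ligand genes, 37 of 47 genes, or 78.7%, had a log2 fold change under 0, against 50.6% of all genes tested, and their median was -0.07. Most of these differences were small beside their errors, and 1 of 47 passed an unadjusted p of 0.05. The genes share the same 6 libraries and are not independent of each other. Without NCD replicate 1, 31 of 48 genes, or 64.6%, were under 0, where 50.1% of all genes tested were. The median of the listed genes was then -0.076. With library size alone as the scaling 41 of 47 were under 0, where 55.2% of all genes tested were and the median of all genes was -0.02. The groups did not overlap for 2 of the 47 genes, where 8.81% of all genes tested did not overlap. These were Arrb2 and Adcy2, which were singled out after their values were seen. Arrb2, a beta-arrestin, had 8.03 ± 0.805 CPM (SD, n = 3) in the NCD group and 6.31 ± 1.12 CPM (SD, n = 3) in the HFD group (edgeR unadjusted p = 0.162). Adcy2 had 75.2 ± 5.84 CPM (SD, n = 3) in the NCD group and 66.2 ± 4.61 CPM (SD, n = 3) in the HFD group (edgeR unadjusted p = 0.118).

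**Figure D4:**
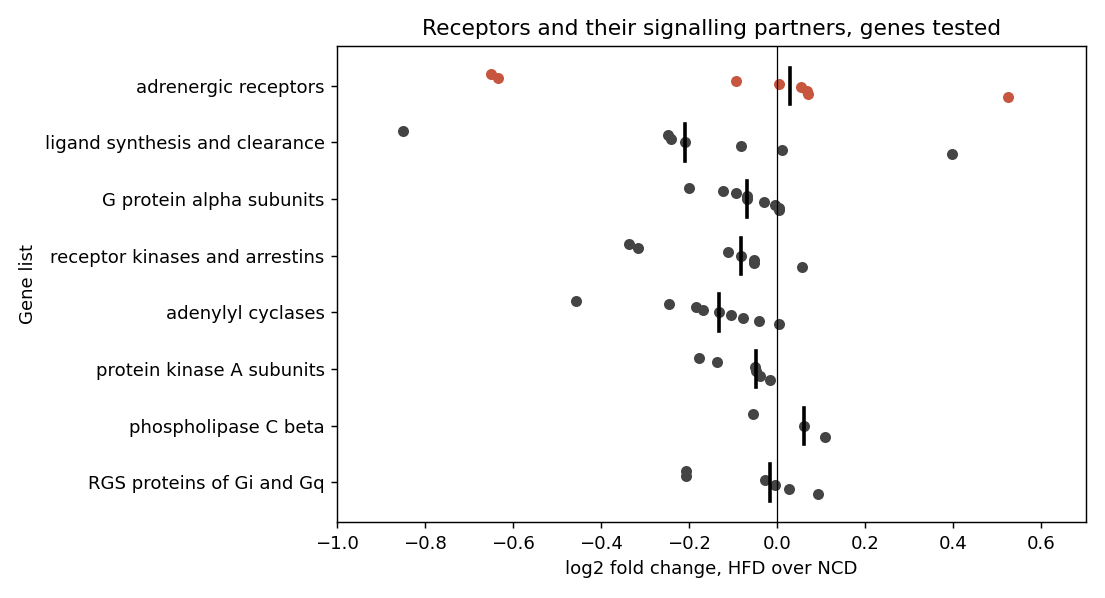
Log2 fold change, HFD over NCD, of each gene tested, for the 8 receptors (red) and for 7 lists of ligand and signaling genes (dark gray), with the median of each list as a vertical bar. The receptors scatter on both sides of 0 with a median of 0.03, and 37 of the 47 other genes lie under 0.

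Adrb1 had the highest mean count of the receptors, and the 5 genes whose log2 CPM followed it most closely over the 6 libraries were Cdc23, Klf7, Tmem132b, Sgk1 and Fcgrt. Their Pearson correlations with Adrb1, picked as the highest of all genes tested, were 0.986, 0.983, 0.982, 0.978 and 0.972. No p-value was computed for them, and a link of these genes to Adrb1 was not tested. The points are the 6 libraries of both diets and share their depth and tissue, and 70 genes, or 0.508% of those tested, had a correlation over 0.9.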

How the data were processed

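Total RNA of forebrain hemispheres was sequenced from 6 libraries (3 NCD, 3 HFD) prepared with the QuantSeq 3′ kit. After trimming, the authors mapped reads to mm10 with Bowtie2, counted unique and multiple alignments per gene with Bedtools coverage, and deposited raw read counts per gene. The quantile normalization named in the methods is not part of the deposited counts. The gene annotation and the use of strand are not given in the sources used here.

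Counts were analyzed in R 4.3.3 with edgeR 4.0.16 (filterByExpr, minimum count 10, minimum total count 15, TMM, glmQLFit and glmQLFTest, Benjamini-Hochberg adjustment over 13771 genes), without a covariate. Standard errors were derived from the F statistic, and 95% intervals use the moderated degrees of freedom. DESeq2 1.42.0 and limma 3.58.1 (on quantile-normalized log2(CPM + 1)), upper-quartile scaling, library size alone, testing without the filter or with 10 counts required in every library, a replicate block, and omission of single libraries were alternatives. Libraries carry no molecular identifiers in the counts, so floors cover counting error only.

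The receptors were matched by symbol, and positions and transcript ends come from GENCODE vM21. The members and gene lists were chosen with earlier results of these data known. Named genes are the receptors, the most abundant gene of each signaling list, list genes with an unadjusted p under 0.05, and the 5 genes most correlated with the receptor of highest mean count (log2 CPM, prior count of 2). Some genes that this rule or the marker lists name are not reported here. Figures were drawn with matplotlib 3.10.9.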

Additional observations from a re-analysis of the deposited data

How the results depend on the processing

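The 8 receptor genes stayed without an adjusted or unadjusted p under 0.05 in each alternative fit that tested them. Adra1a, Adra1d, Adra2b, Adrb1 and Adrb3 kept the sign of their log2 fold change in all of them. Adra2a, at 0.0036 in the comparison reported, had the opposite sign in 6 of 13 alternatives, among them -0.013 by library size alone and -0.0083 with the replicate block. When single libraries were omitted, values ran from -0.12 to 0.14 for Adra2a, from -0.20 to 0.010 (without NCD replicate 3) for Adra1b, from -0.090 (without HFD replicate 3) to 0.15 for Adra2c, from 0.02 to 0.12 for Adrb1, from -0.86 to -0.35 for Adrb3, from -0.90 to -0.41 for Adra2b, from 0.20 to 0.77 for Adra1a and from 3.2e-05 to 0.10 for Adra1d. With at least 10 counts in every library, Adra1a, Adra1d and Adra2b were not tested. Same-numbered libraries of the 2 diets did not deviate together in their counts (correlations of -0.03, 0.05 and -0.06). The numbers were therefore not taken as pairs. In the study's read quality reports, however, GC content was highest in replicate 3 and lowest in replicate 2 of both diets. What the numbers stand for is not stated. The replicate block left the number of genes with an adjusted p under 0.05 at 0. Over all genes this number, 0 in the comparison reported, was 2 with DESeq2, 23 without a filter and between 0 and 3 with a library left out, the highest without NCD replicate 3. The number with an unadjusted p under 0.05 and a change of 1.5-fold, 176 in the comparison reported, was 396 without a filter, which tests 18936 genes, 155 with the replicate block and 179 to 232 with a library left out. The direction count of the ligand and signaling genes was recomputed after its value was seen and ran from 31 to 39 with a library left out. At this depth, changes of 1.5-fold were outside the 95% intervals of Adrb1, Adra1b, Adra2a and Adra2c, but lay within those of the 4 rare receptors in at least 1 direction.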
